A study of Mus musculus with 2 samples.

Results

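The Meg3, Rian and Mirg genes form a run of imprinted noncoding RNA genes on mouse chromosome 12. In RNA recovered with Flag-tagged Zc3h10 from myoblasts, 2 of the 947 peaks of the deposited list overlapped this run, by at least 1 base of chr12:110770000-111000000 (mm9). The members were chosen by that window and from a list restricted to regions with more signal in the Flag-Zc3h10 library than in the GFP library, so their enrichment is given below as a description, without a test. Both peaks lay on Meg3, whose place in mm9 was taken as about chr12:110779200-110809900. No peak lay in the rest of the window, where Rian and Mirg follow.

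Meg3 is a long noncoding RNA made from the maternally inherited chromosome, found mostly in the nucleus and studied for its association with the Polycomb complex PRC2, which modifies histones. Rian carries small nucleolar RNAs and microRNAs within its transcript, and Mirg is a host of microRNAs. The noncoding genes are read in the same direction as Meg3, are silent on the paternal chromosome, and are often treated as 1 long maternal transcription unit that begins at the Meg3 promoter. Their protein-coding neighbours Dlk1, a Notch-related membrane protein, Rtl1, a protein derived from a retrotransposon, and Dio3, a deiodinase that inactivates thyroid hormone, are expressed mainly from the paternal chromosome. In skeletal muscle the microRNAs of this region are known from muscle stem cells.

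C2C12, an established line of mouse myoblasts, gave 1 library for each of the groups. In the Flag-Zc3h10 group an adenovirus expressed mouse Zc3h10, a CCCH zinc finger protein, with a Flag tag at its N terminus from the CMV promoter, and in the GFP group the adenovirus expressed GFP from the same promoter in cells labelled wildtype. Infection lasted 48 h in both groups, at a multiplicity of 5, and the labels name no deletion or other agent. Zc3h10 was thus expressed from a viral promoter and on top of the cells' own copy. Anti-Flag agarose beads are given for the Flag-Zc3h10 library, while the GFP library is labelled as having no antibody although the protocol describes beads for all samples. Recovery of Meg3 RNA with the protein and a rise of Meg3 RNA in the cells that made it therefore cannot be told apart. The caller kept 10439835 of 32072310 tags of the Flag-Zc3h10 library and 10849213 of 35838104 tags of the GFP library. At most 2 tags per position and strand were kept. How this filtering changed the ratios of the peaks compared below was not tested. Because a peak list holds no expression level, the labelled cell type was not checked against marker genes.

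The sequence around the annotated start of Meg3 is shown to identify the promoter and first transcribed bases of the gene that both peaks overlap by position. It is the RefSeq window chr12:109540746-109541045 of build GRCm38.p6, plus strand, whose positions cannot be set against those of mm9. Distances along Meg3 given below are counted from its approximate mm9 start instead. It holds 250 bases before the start in lower case and the first 50 bases of the transcript in capitals.
Meg3 start window: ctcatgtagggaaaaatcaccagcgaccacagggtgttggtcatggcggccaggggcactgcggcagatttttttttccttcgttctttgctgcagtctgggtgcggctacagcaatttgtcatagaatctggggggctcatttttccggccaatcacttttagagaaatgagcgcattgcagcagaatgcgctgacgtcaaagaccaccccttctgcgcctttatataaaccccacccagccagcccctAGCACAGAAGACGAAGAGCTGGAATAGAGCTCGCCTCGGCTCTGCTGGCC
RefSeq lists 2 start windows for Meg3, 1 for Rian and 1 for Mirg, all on the plus strand. The first of the Meg3 windows is printed. The bases under the peaks themselves are not printed, as no mm9 sequence was used here.

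The first Meg3 peak, chr12:110781848-110784761, was 2914 bases wide and lay wholly inside Meg3, near its 5′ end. It began 2648 bases and ended 5561 bases after the Meg3 start. At its summit, position 110782760, the pileup was 96 fragments in the Flag-Zc3h10 library (95% exact Poisson interval 77.8 to 117). The pileup is the number of sequenced tags, each extended to 500 bases, that cover a base. The control level, the number of fragments expected there from the GFP library and computed as pileup over fold enrichment, was 6.25. The authors' deposited table gives this peak a fold enrichment of 15.35, a −log10 p of 77.44 and a −log10 q of 73.03. The Flag-Zc3h10 pileup thus exceeded this control level by 89.8 fragments at a base about 3560 bases into the gene. That level can come from a window of 1000 or 10000 bases, so GFP coverage of the base itself is not given.

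The second Meg3 peak, chr12:110809319-110810217, was 899 bases wide and lay across the 3′ end of Meg3. Its summit, position 110809728, was 172 bases before that end. Of its bases, 582 fell inside Meg3 and the last 317 beyond the end, which is itself known only approximately here. The pileup was 35 fragments (95% exact Poisson interval 24.4 to 48.7) over a control level of 2.79. That level is the genome-wide background, the lowest control that the caller uses, so the deposited fold enrichment of 12.54 is a lower bound. The deposited −log10 p was 26.70 and the −log10 q 22.86.

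**Figure D1:**
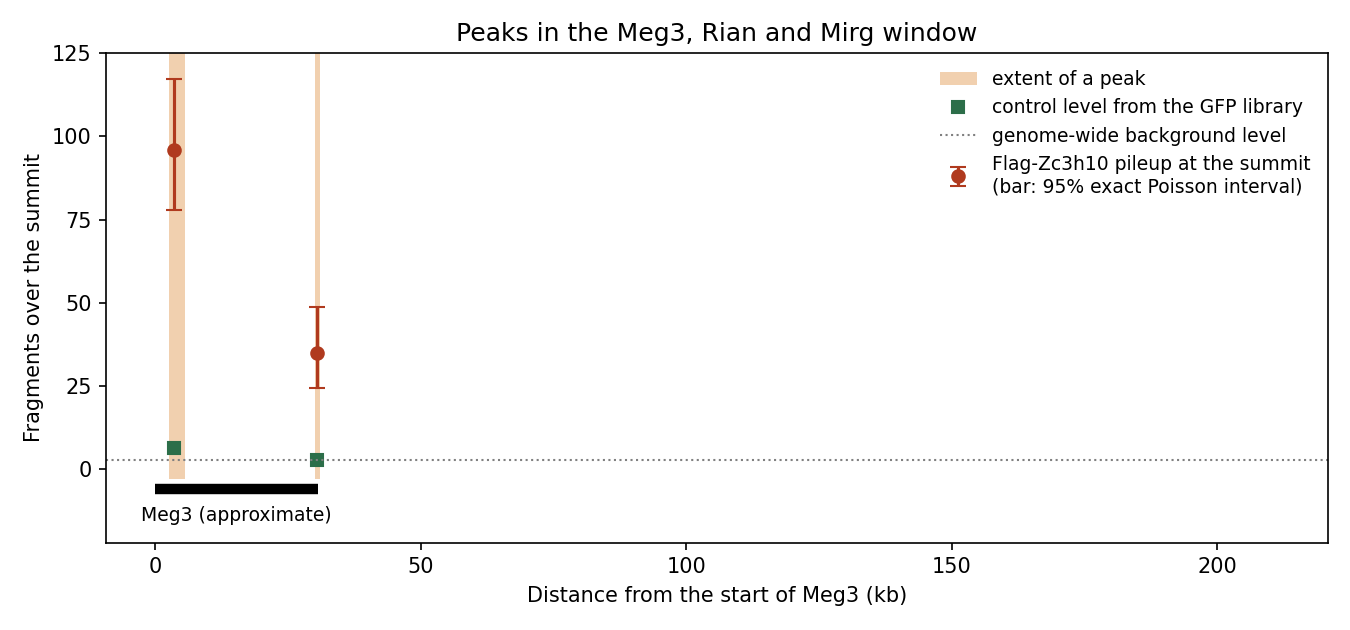
Fragments over the summit of each peak in the window, against distance from the start of Meg3 in kb. Circles are the Flag-Zc3h10 pileup with its 95% exact Poisson interval, squares the control level from the GFP library, shaded bands the extent of the peaks, the dotted line the genome-wide background of 2.79 and the black bar Meg3. The pileups of 96 and 35 sit at opposite ends of Meg3, and no peak follows in the remaining 189783 bases.

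The peaks differed in height and width. The 5′ peak had 2.74 times the pileup and 3.24 times the width of the 3′ peak, and their Poisson intervals of pileup did not overlap. With the control level held fixed, the counting interval of the fold enrichment was 12.43 to 18.74 at the 5′ peak. At the 3′ peak the lower end of that interval was 8.73, and no upper end can be given because the control is at background. Whether the enrichment differed between the ends of Meg3 is therefore not known from these values. Neither pileup was near the ceiling of 2000 fragments that the limit of 2 tags per position and strand sets. All intervals cover counting error only, since amplified reads without molecular identifiers are not independent molecules. They do not allow for each summit being the highest point of its peak, so their lack of overlap is a description. With 1 library per group no spread between replicates was measured.

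The control levels can be read back as GFP tags. Across the list, 141 of the 150 peaks with a control level under 10 and above background had one that equals a whole number of GFP tags in 1000 bases, after the scaling of 0.962 between the libraries and within the rounding of the deposited ratio. At the 5′ peak that number was 13 tags, and 130 tags in 10000 bases would give the same level. If it was 13, its 95% exact Poisson interval of 6.92 to 22.2 tags puts the control level between 3.33 and 10.70. With counting error in both libraries, the fold enrichment of the 5′ peak then ranged from 8.56 to 29.9 (95% exact Clopper-Pearson interval of the share of counts, turned into a ratio). At the 3′ peak a control at background allows at most 2 GFP fragments over the summit, 5 tags in 1000 bases and 58 tags in 10000 bases. The control level was thus at the background floor at the 3′ peak, where the GFP level itself can be lower. At the 5′ peak the control level was 2.24 times background, and 128 of the 947 peaks had a lower one.

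The stretches of the window without a peak were longer than the peaks by far. The 11848 bases from the window's start to the 5′ peak held none, including the position taken here as the Meg3 start. Where the second start that RefSeq lists for Meg3 lies in mm9, inside or outside the 5′ peak, was not determined. The 24557 bases between the peaks, all inside Meg3, held none. The peaks covered 3496 bases of Meg3, or 11.4% of its 30701 bases, introns included. Tags were extended along the genome, so neither width is an exon length.

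From the 3′ peak to the window's end, 189783 bases or 82.5% of the window held no peak. Rian and Mirg follow Meg3 in the RefSeq gene order of GRCm38.p6, in which the region reads Dlk1, Meg3, Rtl1, Rian, Mirg and Dio3. Between the end of Meg3 and the end of Mirg that table lists 58 microRNA genes and 19 small nucleolar RNA genes. Within the spans of the hosts, Rian holds 11 of the small nucleolar RNA genes and 3 microRNA genes, and Mirg holds 10 microRNA genes. Meg3 itself holds 2 microRNA genes, Mir1906-1 and Mir770. Mature microRNAs lack the poly(A) tail from which oligo(dT) primers copy, so the list bears on host transcripts and not on mature microRNAs.

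A stretch without a peak gives a limit and not a level. At a control level of 2.79 a pileup of about 13 fragments, or 4.66-fold, would reach the lowest −log10 p of the list, 5.16. At control levels of 10 and 50 the least pileup would be 26 and 84 fragments, or 2.6-fold and 1.68-fold. The lowest pileup in the list was 16. An excess over Rian or Mirg of the size seen at either end of Meg3, at the control levels seen there, lies above these limits. The limits concern the −log10 p at a summit only, and the narrowest listed peak was 500 bases wide. Whether such an excess would also be wide enough and alignable to be listed was not tested. Whether Rian and Mirg RNA was present in either library, at equal levels or not at all, is not known from the list.

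In the RefSeq table of GRCm38.p6 the gene Rtl1, known to be read from the opposite strand, overlaps Meg3 and covers its last base. Whether the 3′ peak lies in that overlap in mm9 was not determined. The peak list carries no strand, so fragments of Meg3 and of an overlapping transcript cannot be told apart, and the assignment of that peak to Meg3 rests on position alone. Among the genes overlapping Meg3 in that table, the others were the microRNA genes named above. The exon structure of Meg3 in mm9 was not used, so neither peak is placed in an exon or an intron.

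Both Meg3 peaks stood high in the list by ratio. By height the 5′ peak lay somewhat below the median of the list and the 3′ peak far below it. At least 10-fold enrichment was found at both, and at 27 of all 947 peaks (2.85%), a count that the choice of the window with these ratios known keeps from being a result about Meg3. By the deposited ratio, which only bounds the enrichment of 41 peaks from below, the 5′ peak ranked 2. It ranked 541 by pileup, 70 by width and 103 by −log10 p. The 3′ peak ranked 8 by fold enrichment, tied with a peak on the unplaced sequence chr8_random, and 810 by pileup. The median of the pair was 13.95-fold, beside 2.80 over all peaks. Their pileups of 96 and 35 lay under the median of 122 over all peaks, and their control levels of 6.25 and 2.79 under the median of 50.9.

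**Figure D2:**
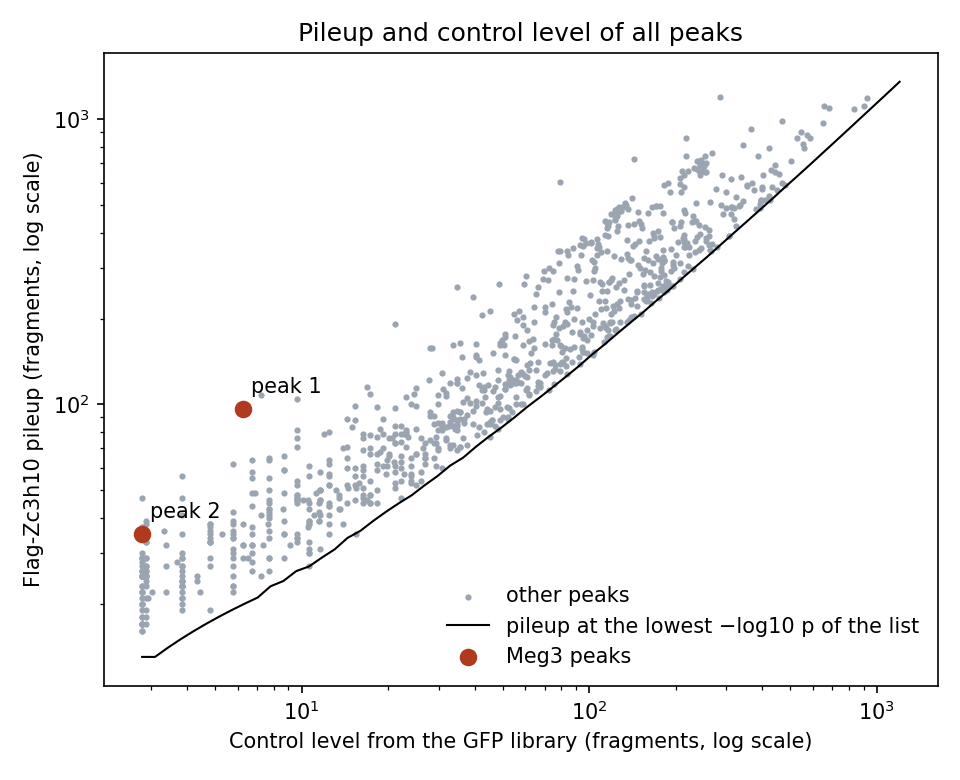
Flag-Zc3h10 pileup against control level from the GFP library for all 947 peaks, both in fragments on log scales. Red points are the Meg3 peaks, and the line is the pileup at the lowest −log10 p of the list. The 5′ peak, with 96 fragments over 6.25, lies far above the line, and the 3′ peak, with 35 over 2.79, lies at the left edge where the control is at background.

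Peaks of like ratio mostly resembled the 3′ peak. Directly above the 5′ peak by ratio stood chr17:34854387-34856735, at least 16.84-fold with a pileup of 47 over background. Directly below it stood chr14:69866115-69867887, 14.96-fold with 108 fragments over 7.22. Among the 25 other peaks of at least 10-fold, the median pileup was 35 and the median width 949 bases. Of these peaks, 11 had a control at background, and the highest control level was 9.62, so ratios of this size were listed only over low control levels. Only 2 of these 25 had a pileup of 96 or more and only 1 was at least as wide as the 5′ peak, so the 5′ peak belonged to the tall and wide end of this group while the 3′ peak, at 35 fragments and 899 bases, was near its middle. Among all 27 peaks of at least 10-fold, 12 pairs followed each other on 1 chromosome or unplaced sequence, and 3 pairs were less than 30000 bases apart. The Meg3 pair was the most widely spaced of those 3, the others being 57 and 1532 bases apart.

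Elsewhere on chromosome 12 the deposited ratios were lower. The other 48 peaks of that chromosome had a median fold enrichment of 2.54, with a median pileup of 176.5 and a median control level of 71.6. The highest deposited ratio among them, 9.31, has a control at background and is a lower bound like that of the 3′ peak. The nearest peak before the window, chr12:109925874-109926945, was enriched 2.10-fold, with 325 fragments over a control level of 154.8. The nearest after it, chr12:112921215-112922174, was enriched 2.13-fold, with 119 fragments over 55.9. The Meg3 peaks thus stood apart from both, 854902 bases beyond the former and 2110997 bases before the latter, and the neighbours differed from them in having well over background in the GFP library.

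**Figure D3:**
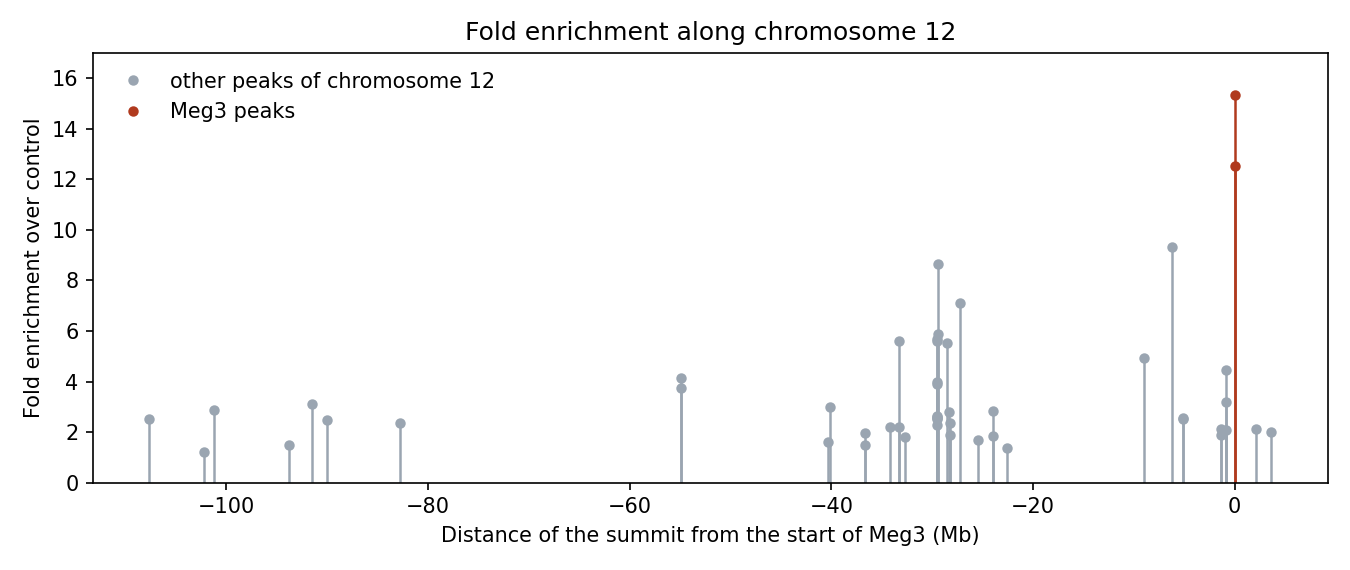
Fold enrichment over control of the 50 peaks of chromosome 12, against the distance of the summit from the start of Meg3 in Mb. Each line is a peak, and the Meg3 peaks, in red at 15.35 and 12.54, stand above the deposited 9.31 of the highest other peak, where 12.54 and 9.31 are both lower bounds.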

How the data were processed

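The RNA immunoprecipitation libraries, 1 per group, were primed with oligo(dT) and tagmented, per the labels' protocols. The submitters' processing notes name TopHat2 2.0.6, MACS2 2.0.9 and the build mm9. Per the file headers, the GFP alignment was the control, the q-value cutoff 0.01, the tag size 51 bases, the duplicate limit 2 and the extension 500 bases, with windows of 1000 and 10000 bases for the local control. The deposited signal is the pileup at the summit, the deposited fold is the ratio of the pileup to the control level, and the −log10 p and −log10 q were deposited as the caller wrote them. The treatment of spliced and of multiply aligned reads was not given in the sources used here.

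From these values the control level was computed as pileup over fold enrichment. Over 946 peaks, a Poisson tail above the pileup at that level lay a median of 0.024 from the caller's −log10 p. A control within 0.02 of the genome-wide 2.79 was counted as background. The overlap minimum was 1 base. Every peak overlapping the window was named, with the nearest peak on each side and the peaks adjoining in rank by fold enrichment. The window and its genes were chosen with earlier results of these data known. Gene order came from RefSeq tables of GRCm38.p6. Interval functions were tested on simulated data. Python 3.11.15, numpy 2.4.6, scipy 1.17.1 and matplotlib 3.10.9 were used.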

Additional observations from a re-analysis of the deposited data

How the results depend on the processing

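The count of 2 peaks in the window held with a −log10 q of at least 10, with at least 4-fold enrichment, with the summit in the window, with peaks within 1000 or 10000 bases merged and with the window widened by 100000 bases on each side. It became 1 when peaks within 25000 bases were merged, a setting chosen after seeing the data. The median fold enrichment of 13.95 was 11.43 with 1 fragment added to the pileup and the control level, and 5.02 with 10 fragments added (6.52 at the 5′ peak and 3.52 at the 3′ peak), since the control levels are small beside 10 fragments. It was 13.95 in the other 3 settings tried. The 3813 bases covered and the longest stretch without a peak, 189783 bases, were the same in each of their 2 alternatives. Both peaks pass the thresholds used, have their summits in the window and lie 24557 bases apart. The nearest other peaks lie 854902 bases before and 2110997 bases after the pair. The threshold settings and the merging within 1000 or 10000 bases therefore could not change any of these values. Nor could the summit setting, the widened window or taking the highest peak per 10000-base locus change the values they were applied to. The stretch ends at the window's edge, and the widened window was not applied to it. No paired analysis was possible because there was only 1 library for either group. At the 3′ peak the control is at background, so its ratio is a lower bound. How the ratios depend on depth was not tested.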
